A study of Rattus norvegicus with 8 samples.

Results

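The class I peptide loading and immunoproteasome genes described here are B2m, Tap1, Tap2, Tapbp, Psmb8, Psmb9, Psmb10, Psme1, Psme2 and Nlrc5. They were taken by the gene name that the array files give to each spot, which found all 10 among the 36174 distinct gene names of the array, on 13 of its 45598 distinct probes. Their expression was measured in NR8383 cells, an alveolar macrophage line first grown from cells washed out of the lung of a normal rat. The line was taken at passage 200 (P200, 4 arrays) and at passage 20 (P20, 4 arrays). Both groups grew in the same serum-supplemented medium, some cells attached and some in suspension, and no treatment other than passage number separates them. The labels call the 4 samples of a group biological replicates and do not say whether they came from separately kept cultures, so p-values measure the spread between these samples. They also do not say whether the P200 cells descend from the P20 stock, so passage number and the history of a culture cannot be told apart.

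Nearly all nucleated cells show fragments of their own proteins on class I molecules, each made of a heavy chain and the small subunit beta-2-microglobulin. Proteasomes cut proteins into peptides, the TAP transporter pumps the peptides into the endoplasmic reticulum, and a loading complex places them on class I. Interferon gamma is known to induce nearly the whole set: newly assembled proteasomes then take up other catalytic subunits as immunoproteasomes, and NLRC5 acts in the nucleus as a transactivator of class I genes. In macrophages this pathway serves the display of peptides to CD8 T cells.

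B2m and Psme2 were lower in P200 than in P20 cells, no gene of the set was higher, and the other 8 did not pass the test. At an unadjusted p under 0.05 in limma there were 3 of the 10, B2m, Psme2 and Psmb9, all lower. Of all 15651 genes tested, 3718 reached an unadjusted p under 0.05 in limma, in either direction. A gene passed at an adjusted p under 0.05 from limma, with Benjamini-Hochberg adjustment over all 15651 genes tested. Of all genes tested, 5.53% were lower and 5.99% were higher in P200. In P200, 9 of the 10 genes had a mean below that in P20, with a median change of -0.16, against a median of -0.00031 and 50.1% below zero over all genes tested. All 4 P200 arrays lay below all 4 P20 arrays for B2m, Psme2 and Psmb9, that is 3 of the 10 genes, against 10.1% of all genes. Values are log2 of the processed signal less the 75th percentile of the array, and a change is the P200 mean minus the P20 mean on that scale, given with its SE, the moderated standard error, from 4 arrays of each passage. All 10 genes were well above background on all 8 arrays.

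**Figure D1:**
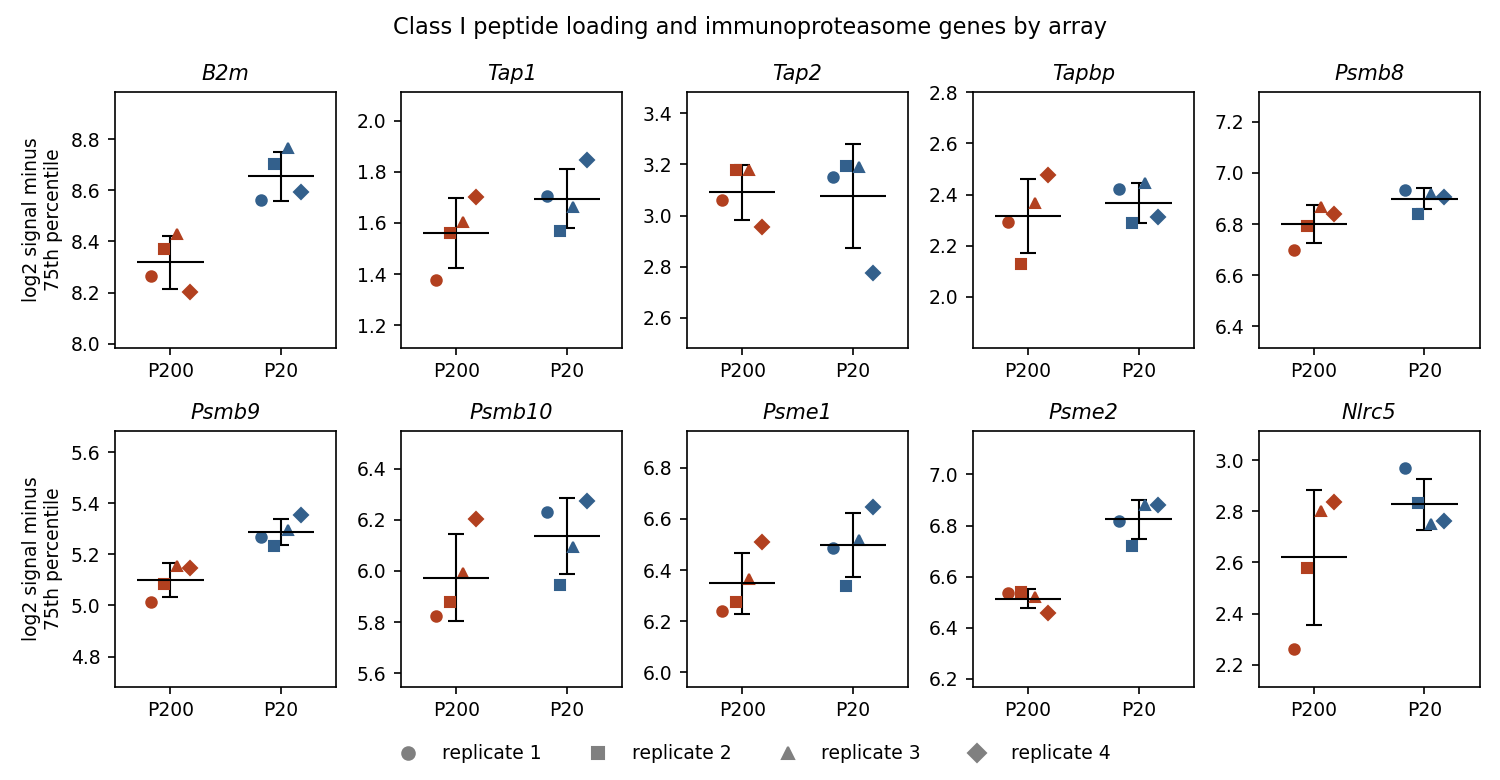
Signal of each gene on each array (log2 processed signal less the 75th percentile of the array), P200 in red and P20 in blue, with 1 marker shape per replicate number, the group mean as a long line and its SD as error bars. The groups are apart for B2m, Psmb9 and Psme2 and overlap for the other 7 genes; every panel spans the same width in log2 units, so the sizes of the gaps can be compared.

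B2m encodes beta-2-microglobulin, the subunit that all class I heavy chains need to fold and reach the cell surface. Its signal was 8.27, 8.37, 8.43 and 8.20 on P200 replicates 1 to 4, against 8.56, 8.70, 8.77 and 8.59 on P20 replicates 1 to 4. All P200 arrays were lower than all P20 arrays, and the spread within a group was alike, with an SD of 0.10 in P200 and 0.095 in P20. B2m fell by 20.8% in P200, a log2 change of -0.34 (SE 0.08, 95% interval -0.51 to -0.16, limma adjusted p = 0.0227). The probe lies at chr3:108933795-108933854 of rn4 (plus strand), by the position in the array files, and the annotation of that build was not used here. The direction was lower in all 19 alternative settings. The call was lost without P20 replicate 2 (change -0.32, adjusted p = 0.0656), without P20 replicate 3 (-0.30, adjusted p = 0.0699) and without P200 replicate 1 (-0.32, adjusted p = 0.0537), and also under quantile normalization (adjusted p = 0.0673), with no filter on dim probes (0.182), with the row of the slide as a block (0.0861) and with each array scaled to its median (change -0.37, adjusted p 1.00, in a fit that gave every gene the same SE of 0.26).

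Of the genes of the PA28 activator, Psme2 was lower in P200 and Psme1 did not pass. Psme1 and Psme2 encode the alpha and beta subunits of PA28, a ring that caps the proteasome and alters which peptides leave it. Psme2 gave 6.53, 6.54, 6.52 and 6.46 on P200 replicates 1 to 4, against 6.82, 6.72, 6.88 and 6.88 on P20 replicates 1 to 4. The P200 arrays were tightly grouped (SD 0.038, against 0.076 in P20), and all lay below the P20 arrays. Psme2 fell by 19.4% in P200, a log2 change of -0.31 (SE 0.06, 95% interval -0.45 to -0.17, limma adjusted p = 0.0115). The call held without any one of the 8 arrays, at adjusted p between 0.0132 and 0.0429. It was lost with no filter on dim probes (adjusted p = 0.146), with the replicate number as a block (0.0504) and with each array scaled to its median (change -0.35, adjusted p = 1.00). With the row of the slide as a block it held, at a limma adjusted p of 0.0494. Psme1 gave 6.24, 6.27, 6.37 and 6.51 in P200, against 6.49, 6.34, 6.52 and 6.65 in P20, and its groups overlapped. Its change was -0.15 (SE 0.09, 95% interval -0.35 to 0.05, adjusted p = 0.364). Both probes stand for 10 spots on each array, averaged. The Psme2 probe maps to chr15:33723033-33723182 of rn4 (minus strand), a span of 150 bases for a probe of 60, and the Psme1 probe to chr15:33715651-33715710 (plus strand).

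Promoter windows of B2m and Psme2, which passed the test, are shown with those of Tap1 and Psmb9, which did not pass and start head to head from one stretch of chromosome 20. Each window runs from 250 bases before the start of the gene to 50 after it, from RefSeq on GRCr8, 5′ to 3′ on the strand of the gene. Capitals mark matches to GAAANNGAA on either strand, the core that interferon regulatory factors are known to bind.
B2m, chr3:129549080-129549379, plus strand: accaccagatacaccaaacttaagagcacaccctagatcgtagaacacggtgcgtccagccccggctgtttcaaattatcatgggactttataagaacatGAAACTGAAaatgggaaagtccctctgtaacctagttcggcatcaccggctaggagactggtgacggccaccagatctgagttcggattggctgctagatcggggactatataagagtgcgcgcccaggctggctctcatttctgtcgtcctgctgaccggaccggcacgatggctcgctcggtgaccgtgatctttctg
Psme2, chr15:33052702-33053001, minus strand: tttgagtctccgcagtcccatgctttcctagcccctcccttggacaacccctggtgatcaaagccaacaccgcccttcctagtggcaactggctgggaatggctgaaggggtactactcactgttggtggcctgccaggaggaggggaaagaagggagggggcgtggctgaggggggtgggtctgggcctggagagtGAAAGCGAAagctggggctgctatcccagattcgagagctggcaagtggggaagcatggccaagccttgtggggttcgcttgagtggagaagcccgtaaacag
Tap1, chr20:4668494-4668793, minus strand: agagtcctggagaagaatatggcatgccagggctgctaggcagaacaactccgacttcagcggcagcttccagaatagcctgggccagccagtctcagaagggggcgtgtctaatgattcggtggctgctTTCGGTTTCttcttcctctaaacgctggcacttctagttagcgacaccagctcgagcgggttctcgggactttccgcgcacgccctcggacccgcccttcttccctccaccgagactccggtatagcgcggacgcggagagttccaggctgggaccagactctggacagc
Psmb9, chr20:4668750-4669049, plus strand: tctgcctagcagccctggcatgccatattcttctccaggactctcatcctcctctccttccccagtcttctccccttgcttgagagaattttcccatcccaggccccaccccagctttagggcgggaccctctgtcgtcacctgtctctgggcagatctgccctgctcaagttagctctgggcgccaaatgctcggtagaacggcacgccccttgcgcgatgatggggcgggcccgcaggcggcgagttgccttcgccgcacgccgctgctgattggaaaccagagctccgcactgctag

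A promoter window was found for 9 of the 10 genes; Nlrc5 was not in the table. The core GAAANNGAA occurred in 7 of these 9 windows (B2m, Tap1, Tap2, Tapbp, Psmb8, Psmb10 and Psme2), against 9.71% of all 33469 windows of that length. It occurred in none of the windows of Psmb5, Psmb6 and Psmb7, the constitutive subunits that Psmb8, Psmb9 and Psmb10 replace. In B2m the match GAAACTGAA begins 150 bases before the start, and in Psme2 the match GAAAGCGAA begins 53 bases before it. The windows of Tap1 and Psmb9 share 44 bases and the starts lie 457 bases apart, and the Tap1 match TTCGGTTTC, on the other strand, falls outside the Psmb9 window, 337 bases before the Psmb9 start. The kappaB motif GGACTTTCC was found in B2m, on the other strand 137 bases before the start, and in Tap1, 54 bases before it, against 0.305% of all windows. Other motifs searched on both strands were TTCNNNGAA, in 1 of the 9 windows (Psmb8) and 8.87% of all, CCAAT, in 3 of the 9 and 37.5% of all, and TGACG, in 2 of the 9 and 21.2% of all. Windows with the core belonged to genes that passed the test and to genes that did not: Tapbp, with 2 matches, had a change of -0.05, and Psmb10, with 3, one of -0.16. Matches overlap each other in Tapbp and Psmb10, and none overlaps a match to another motif. These matches describe letters in a window and are not measured binding.

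The 3 catalytic subunits of the immunoproteasome were each lower on average in P200, and none passed the test. Psmb9 (beta1i) takes the place of Psmb6, Psmb8 (beta5i) that of Psmb5 and Psmb10 (beta2i) that of Psmb7 when a new proteasome is assembled. Psmb9 gave 5.01, 5.08, 5.15 and 5.15 on P200 replicates 1 to 4, against 5.27, 5.23, 5.30 and 5.35 on P20 replicates 1 to 4. The groups were apart, with a change of -0.19 (SE 0.06, 95% interval -0.32 to -0.05, unadjusted p = 0.0130, limma adjusted p = 0.0862). Psmb9 passed with normexp background correction and quantile normalization together (adjusted p = 0.0389; quantile normalization alone gave 0.0547) and when the deposited value table was used in place of the scanner files (change -0.24, adjusted p = 0.0311). Its probe lies at chr20:4806341-4806400 of rn4 (plus strand).

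Psmb8 gave 6.70, 6.79, 6.87 and 6.84 in P200, against 6.93, 6.84, 6.92 and 6.90 in P20, and Psmb10 gave 5.82, 5.88, 5.99 and 6.20 in P200, against 6.23, 5.94, 6.09 and 6.27 in P20. In both genes the ranges overlapped. The change was -0.10 for Psmb8 (SE 0.06, 95% interval -0.24 to 0.04, adjusted p = 0.382) and -0.16 for Psmb10 (SE 0.11, 95% interval -0.40 to 0.08, adjusted p = 0.426). A second Psmb8 probe, at chr20:4787006-4787484 of rn4 (minus strand), had a change of -0.09, and the array files give no position for the brighter one. The Psmb10 probe lies at chr19:35777711-35777770 of rn4 (minus strand). With outlier spots kept, the Psmb8 change was -0.028, and with the deposited value table it was -0.056.

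Tap1 and Tap2 encode the paired chains of the peptide transporter, and Tapbp encodes tapasin, which bridges the transporter to empty class I. Tap1 gave 1.38, 1.56, 1.60 and 1.70 in P200, against 1.71, 1.57, 1.66 and 1.85 in P20. Tap2 gave 3.06, 3.18, 3.18 and 2.95 in P200, against 3.15, 3.19, 3.19 and 2.77 in P20. Tapbp gave 2.29, 2.13, 2.37 and 2.47 in P200, against 2.42, 2.29, 2.44 and 2.31 in P20. The groups overlapped in all 3 genes, and the lowest Tap2 array of all was P20 replicate 4. The change was -0.13 for Tap1 (SE 0.09, 95% interval -0.34 to 0.07, limma adjusted p = 0.431), 0.01 for Tap2 (SE 0.11, -0.23 to 0.26, 0.958) and -0.05 for Tapbp (SE 0.08, -0.24 to 0.14, 0.776). Without P200 replicate 1 the Tap1 change was -0.074, and without P20 replicate 4 it was -0.084. A second, dimmer Tap1 probe at chr20:4797053-4797112 of rn4 (minus strand) had a change of -0.24 (SE 0.12), and a second Tap2 probe one of 0.02. The probes used lie on the minus strand of rn4, at chr20:4793943-4794002 (Tap1), chr20:4770555-4770614 (Tap2) and chr20:5111712-5111882 (Tapbp).

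Nlrc5 encodes the class I transactivator, which in mouse and human acts on heavy chain, B2m, Tap1 and Psmb9 genes. It gave 2.26, 2.58, 2.80 and 2.84 on P200 replicates 1 to 4, against 2.97, 2.83, 2.75 and 2.76 on P20 replicates 1 to 4. P200 replicate 1 was the lowest array and P200 replicates 3 and 4 lay within the P20 range, so the SD was 0.27 in P200 and 0.10 in P20. The change was -0.21 (SE 0.13, 95% interval -0.50 to 0.08, limma adjusted p = 0.392), and without P200 replicate 1 it was -0.09. With the row of the slide as a block it was -0.37 (adjusted p = 0.0688), and within the first and the second row it was -0.23 and -0.52. The size of the Nlrc5 difference thus moved both ways with the arrays and the fit.

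**Figure D2:**
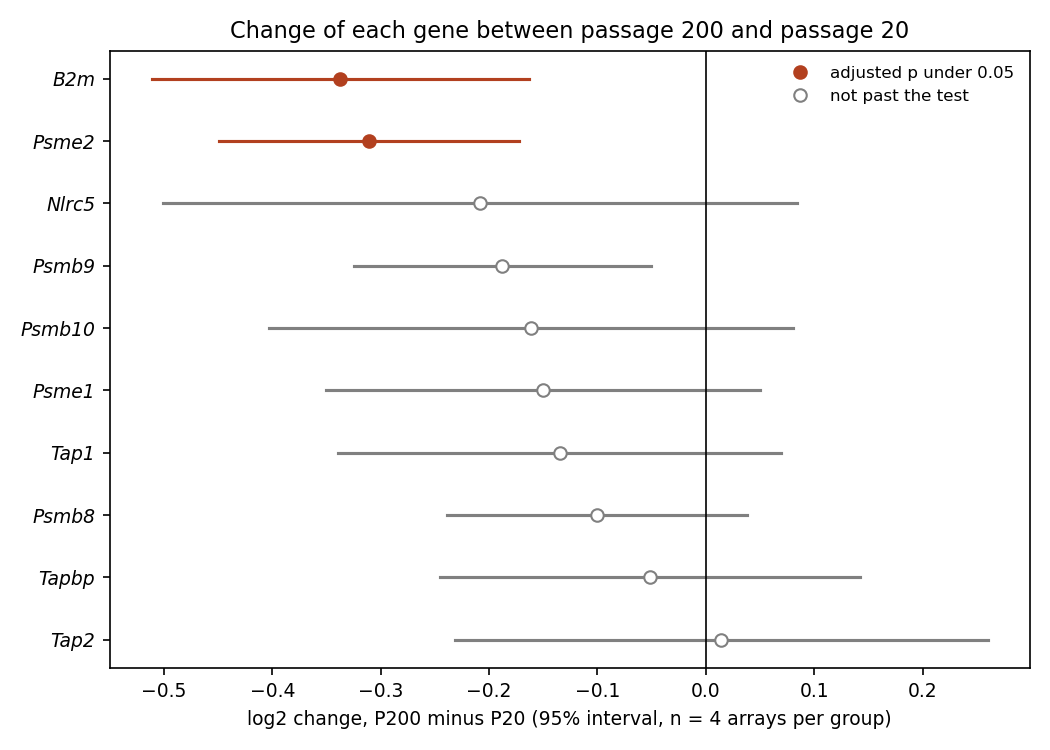
Change of each gene (log2, P200 minus P20) with its 95% interval from limma, n = 4 arrays per group, ordered by size. Filled points passed at an adjusted p under 0.05 over all genes tested; B2m and Psme2 did, at -0.34 and -0.31, and the intervals of all others but Psmb9 include 0.

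The arrays of P200 were ordered alike in several of these genes. P200 replicate 1 was the lowest of the P200 arrays for 6 of the 10 genes, against 31.6% of all genes tested, and P200 replicate 4 was the highest for 5, against 40.2%. P200 replicate 1 was the lowest and replicate 4 the highest at once in 4 genes of the set, against 20.4% of all genes. B2m, Psme2 and Tap2 went against this order: P200 replicate 4 was their lowest P200 array. That is 3 of the 10 genes, against 31.3% of all genes. P200 replicate 4 was also the dimmest array. Its 75th percentile of processed signal was 979, against 1349 to 1869 on the other arrays. Whether this bears on its extreme values was not tested. Within P20, replicate 2 was the lowest for 7 of the 10 genes, against 28.8% of all genes. The SD was larger in P200 than in P20 for 7 of the 10 genes, against 63.9% of all genes. All 8 arrays share 1 slide and 1 scan, with P200 replicates 2, 3 and 4 and P20 replicate 1 in the first row of the slide and the rest in the second. Within the first row and within the second, the difference was -0.23 and -0.42 for B2m, -0.31 and -0.29 for Psme2, and -0.14 and -0.28 for Psmb9. Each row holds 1 array of one group, so no row gives a test of its own.

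A shift of all log2 values of an array leaves ratios within it unchanged, while quantile normalization can move them. Such ratios were compared for 5 pairs of partner genes, each by an exact two-sided permutation test over the 70 regroupings of 8 arrays. Psmb9 over Psmb6 differed by -0.22 between P200 and P20 (p = 0.0857, adjusted over the 5 pairs 0.143), and Psmb8 over Psmb5 by -0.21 (exact p = 0.0857, adjusted 0.143). Under quantile normalization these differences were -0.23 and -0.25, both at an adjusted exact p of 0.0952. In both ratios P200 replicate 4, the dimmest array, was the lowest, at -0.31 and -0.40 from the mean of all 8 arrays, and the groups overlapped. Psmb10 over Psmb7 differed by -0.07 (exact p = 0.429, adjusted 0.514), and by -0.014 without P200 replicate 1 and -0.12 without P20 replicate 2. None of these 3 ratios of an inducible over a constitutive subunit passed; the smallest p that 4 arrays against 4 allow is 0.0286. Psme1 over Psme2 differed by 0.16 (exact p = 0.0857, adjusted 0.143), and P200 replicate 4 was again the farthest array, at 0.30. Tap1 over Tap2 differed by -0.15 (exact p = 0.514, adjusted 0.514), and by 0.0025 without P20 replicate 4. Without P200 replicate 4 the Psmb8 over Psmb5 difference was -0.11 and the Psme1 over Psme2 difference was 0.088. The changes of the partner genes themselves were 0.11 (Psmb5, SE 0.12, limma adjusted p = 0.657), 0.03 (Psmb6, SE 0.10, adjusted p = 0.892) and -0.09 (Psmb7, SE 0.06, adjusted p = 0.481).

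**Figure D3:**
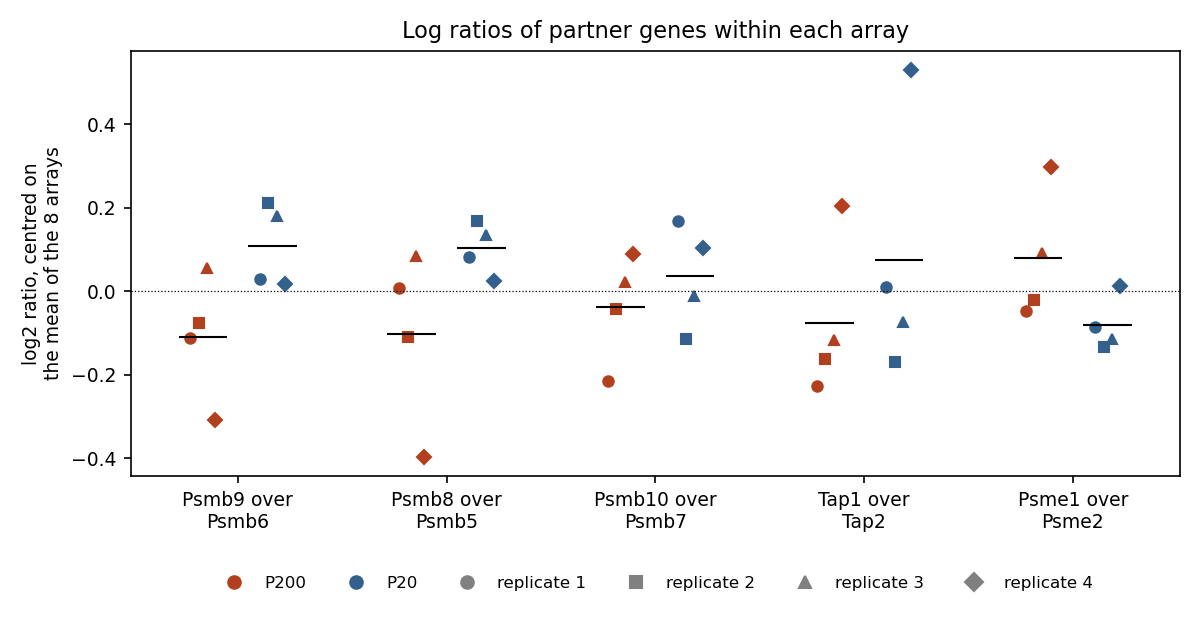
Log2 ratio of partner genes on each array, centred on the mean of the 8 arrays, with P200 in red, P20 in blue, 1 marker shape per replicate and the group mean as a line. Every pair overlaps between the groups, and P200 replicate 4 lies farthest out for Psmb9 over Psmb6, Psmb8 over Psmb5 and Psme1 over Psme2.

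Genes that work beside the set were read from lists of the same pathway, by their counts. None of the 14 constitutive subunits of the 20S proteasome passed, and their changes lay between -0.11 and 0.11 with a median of -0.02. None of 24 tested genes of the 19S cap, other activators and assembly factors passed either, between -0.14 and 0.13 with a median of -0.01. No gene of these proteasome lists reached an unadjusted p under 0.05 in limma. Among both these lists and the proteasome genes of the set, Psme2 alone passed. Of 8 genes for folding and peptide editing in the endoplasmic reticulum, none passed and 1 reached an unadjusted p under 0.05: Calr, the chaperone calreticulin of the loading complex, was apart between the groups at -0.28 (SE 0.08, limma adjusted p = 0.0630); it was chosen after its value was seen. Of 6 peptidases that trim peptides in the cytosol or endosomes, none passed, with none at an unadjusted p under 0.05 and a median of 0.0073.

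The regulators upstream gave 1 call. Of 12 genes of interferon gamma signalling, 10 were tested and 1 was lower in P200: Irf9, an interferon regulatory factor that binds DNA, changed by -0.27 (SE 0.07, limma adjusted p = 0.0382). Leaving out any array but P200 replicate 4 ended that call, with adjusted p up to 0.0989, and so did the slide row as a block (0.112), no filter on dim probes (0.293) and median scaling (1.00). The other 9 did not pass, and the list had a median of -0.12. Of the 2 not tested, Socs1 was well above background on no array and Ciita on 1 P20 array. Of the 8 factors that assemble with NLRC5 on class I promoters (the RFX and NF-Y subunits, Creb1 and Atf1), none passed and the median was -0.0045; Atf1 reached an unadjusted p under 0.05, at 0.28 (SE 0.12, adjusted p = 0.209).

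Of the proteins that bind beta-2-microglobulin, 15 of 16 were tested and 9 were lower in P200, none higher, with a median of -0.36. Most are RT1 heavy chains, the rat class I family, whose near-identical members these probes were not shown to tell apart. RT1-CE10 (-0.51, adjusted p = 0.00624), RT1-CE7 (-0.43, 0.0193), RT1-A2 (-0.40, 0.00684), RT1-A3 (-0.39, 0.00832) and RT1-A1 (-0.38, 0.00502) had the largest drops in limma, beside B2m at -0.34. RT1-CE7 lost its call without P20 replicate 2 (adjusted p = 0.0563), P20 replicate 3 (0.0597) or P200 replicate 2 (0.0520), and with the slide row as a block (0.0869); as the mean of its probes its change was -0.28 (adjusted p = 0.327). RT1-A1 (0.0516) and RT1-A3 (0.0648) lost theirs under quantile normalization, RT1-A3 also with normexp added (0.0659), and all 5 with no filter on dim probes (0.0635 to 0.141) and with median scaling (0.544 to 1.00). Cd1d1, which presents lipids with beta-2-microglobulin, changed by -0.37 (limma adjusted p = 0.0400). That call was lost when any array other than P200 replicates 2 and 4 was left out, with adjusted p up to 0.105, and with the slide row as a block (0.110), no filter (0.234) or median scaling (1.00). Fcgrt, the neonatal Fc receptor heavy chain (0.22, SE 0.08, adjusted p = 0.116), and Hfe, an iron regulator of the class I fold (0.13, adjusted p = 0.549), did not pass.

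**Figure D4:**
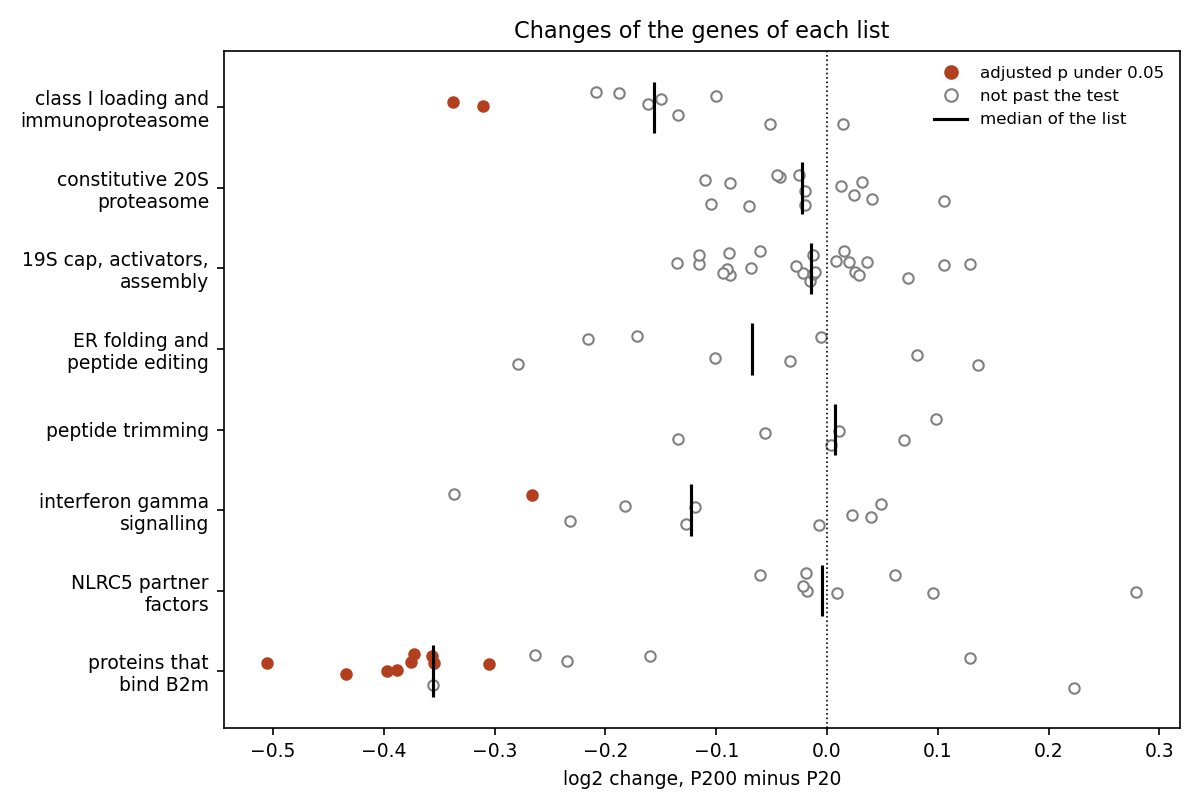
Change (log2, P200 minus P20) of each tested gene of each pathway list, 1 point per gene with a small vertical offset for legibility; filled points passed at an adjusted p under 0.05 and the bar is the median of the list. The proteasome lists centre near 0, at -0.02 and -0.01, while the class I loading and immunoproteasome genes centre at -0.16 and the proteins that bind B2m at -0.36.

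The label of the line was checked against markers. Of 12 macrophage markers, 10 were well above background on all 8 arrays, Marco on 1 P200 array and Adgre1 on none; summed over the list, their signal relative to the 75th percentile was 501 to 533 in P200 and 538 to 555 in P20. Of these, 3 were lower in P200 (Cd14, Itgam and Siglec1), and the other 7 tested did not pass. The change was below 0 for 8 of the 10 tested, with a median of -0.10. Mrc1, which went the other way and was named after its value was seen, was at 0.51 (SE 0.17, limma adjusted p = 0.106). The summed signal of the 10 class I genes was 690 to 760 in P200 against 841 to 898 in P20. These sums are linear, so bright genes weigh most and the sum does not measure the 10 genes alike. B2m was the brightest of them, at a mean log2 signal of 8.32 in P200 and 8.66 in P20. The part of the marker difference in the drop of B2m and Psme2 was not tested. In a bulk sample fewer cells of a type and less RNA per cell cannot be told apart. Dendritic cell markers summed to 0.400 to 0.661 in P200 and 0.533 to 0.610 in P20; of the 5, Flt3, Xcr1 and Ccr7 were on no array above background and Clec9a was lower in P200 (-0.88, limma adjusted p = 0.00248). No marker of lymphocytes, of granulocytes and mast cells or of lung epithelium had a probe well above background throughout either passage group. Of 5 fibroblast markers, 2 were well above background on all 8 arrays, as were 3 of 5 endothelium markers. Fibroblast markers summed to 6.75 to 8.35 in P200 and 6.18 to 7.21 in P20. Endothelium markers summed to 15.7 to 19.1 in P200 and 14.3 to 16.9 in P20. None of either list passed the test or reached an unadjusted p under 0.05 in limma.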

How the data were processed

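Cy3-labelled RNA was read on 8 single-colour Agilent rat arrays. The deposited scanner files hold the intensity of each spot, background-subtracted and without scaling between arrays, per the file headers, and were made with Agilent Feature Extraction 11.0.1.1, per the submitters' processing notes. The deposited value table holds raw median spot intensity of the same arrays and served as an alternative. Its P200 columns 1 to 4 hold the scanner files numbered 2, 3, 4 and 1. Replicate numbers here are those of the scanner files.

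Control and outlier spots were left out, log2 signals of the spots of a probe were averaged, and each array was set relative to its own 75th percentile. Probes well above background on all 4 arrays of at least 1 group were kept (19458 of 45514). The brightest probe stood for a gene, which gave 15651 genes. The groups were compared by limma (version 3.58.1, under R 4.3.3), P200 minus P20, and the script was tested on simulated data. Names and promoters came from RefSeq tables of GRCr8; probe positions are those of the files on rn4. Signal over background and the number of arrays limit the precision.

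The genes, pathway lists and alternatives were chosen with earlier results of these data known. Named genes are the 10 genes of the set, genes of other lists past the test (up to 6 a list), the partner genes and the 5 nearest profiles. Calr, Atf1, Fcgrt, Hfe, Mrc1, Emc9 and Lcat fall outside that rule and were named after their values were seen. Psmg3 was not found on the array.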

Additional observations from a re-analysis of the deposited data

Results flagged for a closer look

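Tap2 stood out on P20 replicate 4, at 2.77 against 3.15 on the nearest P20 array, a gap that took 0.902 of the range of the group and exceeds Dixon's 95% critical value for 4 arrays. The second Tap2 probe was also lowest on that array, at 1.39 against 1.92 on the nearest P20 array. In all, 36 groups were examined in this way, and chance marks about 1 in 20. Without that array the Tap2 change was -0.087.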

How the results depend on the processing

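There were 19 alternatives, 8 of them leaving out 1 array. Over all genes, 938 were higher and 866 lower in P200, against 286 and 367 with each array scaled to its median, and 389 and 423 with no filter on dim probes, where 36121 genes were tested. Leaving out 1 array gave 674 to 861 higher and 595 to 836 lower. Of the class I loading and immunoproteasome genes, 2 were lower; the count was 0 with the median scaling and with no filter, 1 under quantile normalization (Psme2) and with the slide row as a block (Psme2), and 1 to 2 with 1 array left out. It was 3 with normexp and quantile normalization together and with the deposited value table, both adding Psmb9. None was higher in any alternative. Under median scaling limma gave all 15651 genes the same SE of 0.26, so no gene was tested on its own spread, while the changes of B2m and Psme2 were -0.37 and -0.35. Where no other reason is given, the cause was not tested.

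With the replicate block, 1 gene of the set was lower (B2m), and Psme2 had an adjusted p of 0.0504. Irf9 (0.0851) and Cd1d1 (0.0549) also no longer passed with the block. Deviations of same-numbered arrays from their group means correlated at 0.025, 0.134, -0.003 and 0.281 over genes, so the numbers were not taken to pair the arrays. Over all genes the block gave 785 higher and 718 lower. For the 5 partner ratios, sign flips over the 4 numbered pairs cannot go below an exact p of 0.125, and array quality weights were not run.

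Changes near 0 took the other sign in some alternatives. Tap2 was -0.023 with median scaling, -0.021 with the slide row as a block and -0.087 to 0.060 with 1 array left out. Psmb6 was -0.0057 with median scaling, -0.017 with the slide row, -0.030 with array weights and -0.050 to 0.084 with 1 array left out. With 1 array left out, Tapbp ran from -0.10 to 0.011, Psmb5 from -0.0049 to 0.18 and the Tap1 over Tap2 difference from -0.24 to 0.0025. The other 8 genes of the set were below 0 in all 19 alternatives.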

Other observations

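The profile of the set, the mean of its 10 genes each centred on its own mean over the 8 arrays, was compared with all other genes tested by root mean square difference. The nearest were Dennd5a (0.0316), Inpp4a (0.0362), Lpxn (0.0374) and Ndst2 (0.0391), with 1 more that carries no gene name at the fourth place. None of the 5 passed the test. Within the set, Psmb9 (0.0321) and Psmb8 (0.0338) lay nearest to that profile and Tap2 (0.181) farthest.

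Tap2, Psmb8, Tap1 and Psmb9 follow one another on chromosome 20, and Psme1 and Psme2 lie on either side of Emc9 on chromosome 15, in RefSeq order. Of 13 protein-coding neighbours of the set, 9 were tested, and none was higher or lower in P200 in limma, with a median change of -0.04. Emc9, between the PA28 genes, had a change of 0.23 (SE 0.07, adjusted p = 0.0896), against -0.31 for Psme2 and -0.15 for Psme1. Lcat, beside Psmb10, had -0.99 (SE 0.32, adjusted p = 0.0868), with Psmb10 at -0.16.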
